A study of Mus musculus with 21 samples.

Results

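ZBTB18 overexpression was compared with an empty vector in 6 of the 21 RNA libraries of the series, chosen by their sample titles: 3 libraries of the overexpressing line and 3 of the empty vector line. The comparison covered 15432 genes that passed a filter on low counts, of 55573 in the deposited table, and 3 libraries of the parental line served as a second reference. All 9 libraries came from E0771, a line grown from a mouse mammary tumour, carrying green fluorescent protein (E0771GFP) and grown with calf serum. The parental cells carried no vector, the control cells carried the empty vector (EV), and the third line overexpressed ZBTB18 (ZBTB18OE). For these 9 libraries the sample fields name neither doxycycline nor TGF-β1. The study asked how ZBTB18 alters transcription and open chromatin in mouse cancer cells. Its labels name 1 line per construct, so any other difference between the lines cannot be told apart from ZBTB18. They also do not say that the 3 libraries of a group came from separate cultures, so every p-value measures only the spread between these libraries, which may be technical.

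ZBTB18 belongs to the family of transcription factors that join a BTB domain, which recruits corepressors, to zinc fingers that bind DNA. It is best known as a repressor during the development of cortical neurons, and its preferred DNA sequence holds an E-box-like core, CATCTG. TGF-β is first bound by TGFBR2, which phosphorylates TGFBR1; that partner passes the signal to SMAD proteins.

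The promoters below are shown because the labels tie the study to a DNA-binding factor, and they belong to the receptor gene and to a strongly higher and a strongly lower gene. Each run is the 250 bases before the start of the gene, 5′ to 3′ on the gene's strand, from RefSeq on build GRCm38.p6, with CATCTG or its reverse complement CAGATG in capitals. Galnt15 and Apobec1 were picked because they hold the match: of the 20 largest changes that held, 9 had a promoter in the table, and 3 of these, with Clip4, held it. Tgfbr2 (chr9:116175364-116175613, minus strand) held neither. Galnt15 (chr14:32028853-32029102, plus strand) held CATCTG at -75 from the start, and Apobec1 (chr6:122602445-122602694, minus strand) at -184.
Tgfbr2: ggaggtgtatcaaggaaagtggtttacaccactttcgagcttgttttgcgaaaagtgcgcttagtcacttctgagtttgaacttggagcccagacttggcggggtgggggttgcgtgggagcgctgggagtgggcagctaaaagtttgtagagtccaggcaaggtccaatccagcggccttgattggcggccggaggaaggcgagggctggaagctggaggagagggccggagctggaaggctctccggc
Galnt15: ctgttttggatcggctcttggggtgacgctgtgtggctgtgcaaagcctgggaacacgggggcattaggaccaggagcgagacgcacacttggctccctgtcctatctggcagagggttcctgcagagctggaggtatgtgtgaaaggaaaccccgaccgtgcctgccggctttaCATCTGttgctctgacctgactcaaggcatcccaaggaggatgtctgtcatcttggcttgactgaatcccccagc
Apobec1: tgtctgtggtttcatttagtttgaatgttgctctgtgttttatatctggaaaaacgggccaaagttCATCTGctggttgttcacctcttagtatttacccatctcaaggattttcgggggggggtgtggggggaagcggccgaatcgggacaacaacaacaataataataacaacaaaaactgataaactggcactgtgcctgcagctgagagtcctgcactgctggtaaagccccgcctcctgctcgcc

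The libraries were deep. Counts totalled 47628144 to 53663661 with ZBTB18, 36052482 to 80780775 with empty vector and 34323595 to 44136813 in the parental line. Levels are given as CPM, the reads of a gene scaled to library size after TMM, which does not correct for gene length. The median SD across genes on the log2 scale was 0.0929 with ZBTB18, 0.0906 with empty vector and 0.162 among parental libraries. A single gene, Gm42418, took 14% of the reads of parental replicate 1, and leaving that gene out changed none of the gene totals below by more than 1.5 times. Transcripts of the mitochondrial genome made up 0.861 to 1.09% of each ZBTB18 or empty vector library and 2.41 to 2.56% of each parental one. Cell type markers were summed in 6 lists, among them luminal and basal mammary epithelium, the tissue of the E0771 tumour. The sums were lower with ZBTB18 than with empty vector in 5 of 6 lists, with no overlap, and overlapped for basal markers. Most markers averaged under 1 CPM with ZBTB18, so few genes set each sum. They were 9 of 11 leukocyte, 10 of 10 endothelial and 6 of 10 fibroblast markers, 11 of 13 luminal, 6 of 7 basal and 10 of 10 lung ones. Of tested leukocyte markers 1 was higher and 1 lower, of endothelial ones 1 and 1, and of fibroblast ones 1 and 2. Of luminal, basal and lung markers 0 were higher, and 3, 1 and 1 lower. Of 11 leukocyte markers 3 were at 0 in every ZBTB18 library and 2 in every empty vector library, and their sum was 4.98 to 8.61 CPM against 11 to 12.6, with 7.75 to 12.7 in the parental line. The 10 fibroblast markers summed to 552 to 627 CPM against 770 to 847, with 3 at 0 in each group, and to 513 to 635 in the parental line. The 13 luminal mammary markers summed to 200 to 216 CPM against 260 to 328, with 5 and 7 at 0, and to 167 to 212 in the parental line. For fibroblast and luminal markers the parental sums thus overlapped those with ZBTB18 and lay below those with empty vector. The 7 basal markers summed to 102 to 174 CPM against 127 to 162, with 3 and 1 at 0, and to 31.4 to 41.4 in the parental line. Endothelial markers (10, of which 3 were at 0 in each group) summed to 1.08 to 1.16 CPM against 1.45 to 2.25 (parental 1.23 to 2.18), and the 10 lung epithelial markers, 5 and 4 of them at 0, to 0.251 to 0.664 against 1.86 to 2.79 (parental 7.13 to 10.2). In these bulk libraries fewer cells of a type and less RNA per cell cannot be told apart, and the part of the marker shifts in the results was not tested.

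Zbtb18 (ENSMUSG00000063659.11, chromosome 1, 177442351 to 177450764 on mm10) read 109, 106 and 124 CPM in the ZBTB18 libraries, 24.1, 25.6 and 25.7 with empty vector and 30.8, 29.7 and 28.0 in the parental line. All 3 overexpressing libraries stood above all 6 references, and the log2 fold change was 2.17 against empty vector (SE 0.108, edgeR quasi-likelihood test with Benjamini-Hochberg adjustment, adjusted p = 3.35e-12) and 1.94 against parental. Reads of the construct and of the endogenous gene are not told apart in these counts. Tgfbr2 (ENSMUSG00000032440.13, chromosome 9, 116084293 to 116175360) read 1.47, 1.97 and 1.77 CPM with ZBTB18, 27.0, 26.6 and 26.1 with empty vector and 13.2, 13.4 and 14.7 in the parental line. Again no library overlapped, with a log2 fold change of -3.94 (SE 0.103, adjusted p = 6.51e-17) and of -2.99 against parental. Among 13 tested TGF-β ligands, receptors and latency proteins, 3 were lower (23.1%) and 0 higher, against 14.5% and 14.0% of all genes. Beside Tgfbr2 they were Acvrl1, a type I receptor (0.348, 0.311 and 0.347 CPM against 1.88, 1.37 and 1.9, log2 fold change -2.35), and Ltbp2, a latent TGF-β binding protein (0.335 against 0.714 CPM on average). Ltbp2 stood above the parental mean of 0.161 CPM, and its call was lost without ZBTB18 replicate 1 (adjusted p = 0.144), empty vector replicate 2 (0.0535) or replicate 3 (0.0904). Tgfb1 (93.6 against 97.3 CPM, adjusted p = 0.752) and the coreceptor Eng did not pass the threshold.

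The difference between the lines was broad. Of the 15432 genes, 4388 (28.4%) passed the threshold of 0.05 on the adjusted p: 2153 were higher (14.0%) and 2235 lower (14.5%) with ZBTB18. At least 2-fold higher were 507 genes (3.29%), and at least 2-fold lower were 737 (4.78%). The ZBTB18 and empty vector libraries did not overlap in 7656 genes (49.6%). Among 12362 protein-coding genes 1943 were higher and 2053 lower, and among 1141 long noncoding RNA genes 136 were higher and 77 lower. The median log2 fold change over all genes was 0.01, with 5th and 95th percentiles of -1.26 and 0.95.

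Each call was then read against the parental line. A change was said to hold when the same gene passed the threshold in the same direction against both references, which share the ZBTB18 libraries. By that rule 2840 of the calls (64.7%; 18.4% of all genes) held: 1457 of the higher ones (67.7%; 9.44% of all genes) and 1383 of the lower ones (61.9%; 8.96% of all genes). Among the changes of at least 2-fold against empty vector, 343 higher (67.7%) and 538 lower genes (73.0%) held, 2.22% and 3.49% of all genes. Past the threshold in the opposite direction against parental were 102 genes higher (0.661%) and 199 lower than empty vector (1.29%). A further 594 (3.85%) and 653 (4.23%) did not pass against parental at all. For scale, 9525 genes (61.7%; 29.9% higher and 31.8% lower) differed between ZBTB18 and parental libraries. Between empty vector and parental libraries 8944 (58.0%) differed, so most genes separated the libraries of the 2 references themselves. The parental libraries also had the larger mitochondrial share given above. Any difference in how they were handled or sequenced cannot be told apart from the line. On log2(TPM + 1) and log2(TPM + 0.1), tested with limma, the median of all genes against parental moved from -0.03 to 0.22 and 0.31. That of empty vector against parental moved from -0.02 to 0.21 and 0.29. The share of calls of ZBTB18 against parental that were higher was then 76.1% and 75.4% in place of 48.4%, and among holding genes 69.6% and 66.9% in place of 51.3%. Counts of holding genes are therefore given on the TMM scale.

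**Figure D1:**
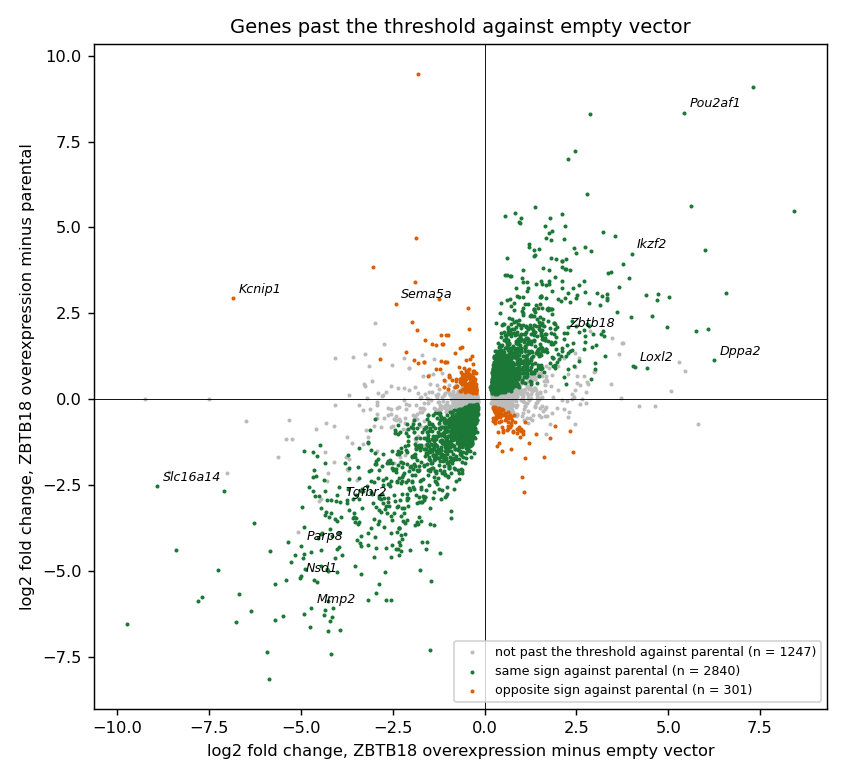
Each point is 1 of the 4388 genes past the threshold against empty vector, by its log2 fold change against empty vector (x axis) and against the parental line (y axis). The 2840 green genes hold with the same sign, the 301 orange ones have opposite signs and the 1247 grey ones did not pass against parental. Pou2af1 lies at the upper right (5.43 and 8.34) and Kcnip1 at the upper left (-6.85 and 2.93).

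Nuclear regulators held some of the largest rises. Pou2af1 (chromosome 9, 51213708 to 51240080), a coactivator of octamer-binding factors in B cells, read 33.2, 40.1 and 39.5 CPM with ZBTB18, 0.928, 0.629 and 1.03 with empty vector and 0.142, 0.0912 and 0.114 in the parental line. The groups were far apart, with a log2 fold change of 5.43 (SE 0.209, adjusted p = 5.22e-14) and of 8.34 against parental. Ikzf2 (chromosome 1, 69531214 to 69687245), the lymphoid factor Helios, read 14.0, 13.8 and 14.4 CPM, against 0.828, 0.765 and 1.06 with empty vector and 0.793, 0.661 and 0.795 in the parental line. Both references sat at the same low level for Ikzf2, and its log2 fold change was 4.0 (SE 0.174, adjusted p = 4.44e-13). Dppa2 (chromosome 16, 48303908 to 48319723), a chromatin factor of germ and pluripotent cells, read 11.7, 12.6 and 11.1 CPM with ZBTB18, 0.188, 0.082 and 0.159 with empty vector and 5.97, 4.79 and 5.34 in the parental line. Here the parental line stood much nearer to the ZBTB18 line, so the log2 fold change of 6.24 (SE 0.19, adjusted p = 6.08e-16) shrank to 1.14 against parental. Pou2af1 and Ikzf2 were not high in the vehicle libraries of the other ZBTB18-overexpressing line, described further on. Of 13 tested lymphoid factors and receptors 2 were higher (15.4%), Pou2af1 and Ikzf2, and 3 lower (23.1%), against 14.0% and 14.5% of all genes. The B cell factor Pax5 was among the lower ones at 1.7, 1.91 and 2.13 CPM against 15.1, 9.13 and 18.6 with empty vector (log2 fold change -2.9, adjusted p = 6.4e-09), but the parental libraries, at 1.56, 1.23 and 2.33, overlapped those with ZBTB18.

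Among 51 tested histone methyltransferases and demethylases 9 were higher (17.6%) and 8 lower (15.7%), shares near the 14.0% and 14.5% of all genes, but some members differed by a wide margin. Nsd1 (chromosome 13, 55209782 to 55318325), a histone methyltransferase of active gene bodies, read 0.232, 0.208 and 0.547 CPM with ZBTB18, 11.4, 11 and 10.5 with empty vector and 13.3, 11.8 and 11.9 in the parental line. Its transcript was nearly gone from every ZBTB18 library, with a log2 fold change of -5.03 (SE 0.351, adjusted p = 7.65e-10) and of -5.2 against parental. Kdm5b (chromosome 1, 134560171 to 134635285), a demethylase that removes an activating histone mark, read 62.4, 64.0 and 71.4 CPM, against 18.4, 15.2 and 19.2 with empty vector and 14.6, 14.8 and 18.3 in the parental line. It was higher than every reference library (log2 fold change 1.9, SE 0.115, adjusted p = 7.99e-11). The remaining calls of the list were small, all within 0.64 of 0 on the log2 scale apart from Prdm1, a transcriptional repressor (log2 fold change -2.32, 0.22 against 1.13 CPM). Outside the 3 chromosomes with a shifted median described further on, the 8 lower calls became 2, and without ZBTB18 replicate 2 or on both TPM scales they were 5. Hmga2, an architectural chromatin protein that binds AT-rich DNA, read 305, 346 and 287 CPM with ZBTB18, 149, 115 and 145 with empty vector and 66.6, 69.8 and 92.7 in the parental line (log2 fold change 1.19, SE 0.119, adjusted p = 1.38e-07).

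Among transcription factor families, the ZBTB family had 9 higher (23.7%) and 3 lower members (7.89%) of 38, against 14.0% and 14.5% of all genes. Of the higher ones 6 held, and of the lower ones 0. The largest rise beside that of Zbtb18 itself was in Zbtb46, a factor of classical dendritic cells, at 7.26, 8.36 and 8.63 CPM against 3.61, 3.55 and 2.85 (log2 fold change 1.27, adjusted p = 4.61e-06). The 9 became 5 when ZBTB18 replicate 1 or 2, or empty vector replicate 1 or 3, was left out, and 4 on both TPM scales. The 3 lower members were 5 with DESeq2 or a replicate block, 7 when the 6 libraries were fitted alone and 1 on both TPM scales. The 334 tested genes named Zfp, mostly zinc finger repressors, had 23 higher and 44 lower members, shares below those of all genes. The 23 became 12 or 13 without ZBTB18 replicate 2 or 3 or empty vector replicate 1 or 3, and the 44 became 27 to 29 without ZBTB18 replicate 1 or 2 or empty vector replicate 1 or 2, 21 on both TPM scales and 69 when the 6 libraries were fitted alone. Zfp57, which protects imprinted loci from losing methylation, fell from 10.0, 13 and 14.3 CPM with empty vector to 4.56, 3.09 and 3.1 (log2 fold change -1.79, adjusted p = 4.11e-08), and its parental libraries were higher still, at 39.5, 42 and 33.9. HOX genes, which set positional identity, had 9 lower (47.4%) and 0 higher members of 19, with a list median of -0.57. Of the 9, 6 held. Their levels were low to moderate: Hoxd10 was at 11.7 against 17.3 CPM and Hoxb3 at 1.85 against 3.19, both called and both holding. The HOX count was 5 without ZBTB18 replicate 2 or empty vector replicate 2, and 4 and 5 on log2(TPM + 1) and log2(TPM + 0.1).

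Secreted and matrix proteins were among the most abundant genes that changed. Spp1 (chromosome 5, 104435118 to 104441050), the secreted phosphoprotein osteopontin, read 788, 926 and 798 CPM with ZBTB18, 225, 140 and 219 with empty vector and 84.7, 76.3 and 72.1 in the parental line. The 3 groups did not overlap, and the log2 fold change was 2.1 (SE 0.159, adjusted p = 2.91e-09) and 3.43 against parental. Plau, the urokinase gene, was lower, at 10.3, 9.84 and 11.3 CPM against 55.7, 37.2 and 68.9 (-2.36). Mmp2 (chromosome 8, 92827291 to 92853420), a gelatinase that cleaves basement membrane collagen, read 0.29, 0.332 and 0.219 CPM with ZBTB18, 8.44, 7.74 and 6.16 with empty vector and 17.9, 19.2 and 20.3 in the parental line. Its log2 fold change was -4.73 (SE 0.298, adjusted p = 1.66e-10), and -6.09 against parental. Of 16 tested metalloproteinases, inhibitors and plasminogen activators 8 were lower (50%), 5 of which held, and 2 were higher (12.5%), 1 without ZBTB18 replicate 2. Over all genes 14.5% were lower and 14.0% higher.

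Collagens and the enzymes that modify them did not move together. Loxl2 (chromosome 14, 69609068 to 69695834), which crosslinks collagen, read 79.8, 102 and 110 CPM with ZBTB18, 6.11, 6.59 and 4.41 with empty vector and 45.5, 51.9 and 54.5 in the parental line. The empty vector line was low among the 3, so its log2 fold change of 4.08 (SE 0.219, adjusted p = 1.19e-10) was 0.94 against parental. Its relative Loxl3 was also higher (10.1, 11.5 and 10.5 against 4.83, 3.77 and 4.6 CPM, 1.28). Of the 12 tested lysyl oxidases and collagen-modifying enzymes 7 were lower (58.3%), 3 on both TPM scales, and 2 higher (16.7%). Col5a3, a chain of fibril-regulating collagen, fell from 185, 183 and 194 CPM with empty vector to 46.4, 58.0 and 58.6 (log2 fold change -1.79, adjusted p = 5.96e-06), and the parental libraries lay between, at 91, 93.6 and 84.8. Of 25 tested collagens 12 were lower (48%) and 4 higher (16%), against 14.5% and 14.0% of all genes, and 7 and 4 of them held. The 4 were Col6a2, Col6a3, Col18a1 and Col3a1. The 4 became 2, 1 and 2 without ZBTB18 replicate 1, ZBTB18 replicate 2 and empty vector replicate 2, and the 12 became 5 and 7 on log2(TPM + 1) and log2(TPM + 0.1). Vcan, the proteoglycan versican, read 31.8, 34.3 and 33.4 CPM against 193, 134 and 193 (log2 fold change -2.38), but its parental libraries, at 38.6, 36.6 and 43.6, were near those with ZBTB18 (adjusted p = 0.212). Matn2, a matrilin that links matrix fibrils, rose to 3.9, 4.98 and 6.06 CPM from 0.652, 0.902 and 0.634 and held.

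The CCN family of matricellular proteins split by member. Ccn5, which lacks the C-terminal domain of its relatives, read 5.72, 13.9 and 7.93 CPM with ZBTB18, 0.677, 0.957 and 0.37 with empty vector and 0.963, 0.479 and 0.369 in the parental line (log2 fold change 3.77, SE 0.446, adjusted p = 4.07e-06). Ccn4, first known as a Wnt-induced gene, read 3.01, 2.7 and 2.57 CPM against 21.1, 21.5 and 17.9 and 23.7, 26.2 and 27.2, so that it was lower than every reference library (-2.87, adjusted p = 4.9e-10). Ccn2 (-2.63) and Ccn1 (-1.0) were lower as well, and all 4 held; the call on Ccn1 was lost without ZBTB18 replicate 2 (adjusted p = 0.057). Serpins and cathepsins, as a further group of secreted and lysosomal proteins, had 9 lower (34.6%) and 1 higher (3.85%) of 26 tested. Over all genes 14.5% were lower and 14.0% higher, and 8 of the 9 held. The higher one was Serpinf1, the anti-angiogenic factor PEDF, at 48.9 against 16.8 CPM (log2 fold change 1.53). Ctsh, a lysosomal aminopeptidase, fell from 7.94, 9.32 and 7.48 CPM to 0.676, 0.706 and 0.492 (-3.72), below its parental level of 2.29, 1.89 and 1.62. Outside the 3 shifted chromosomes 5 lower calls remained in the list.

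Clustered protocadherins, neural adhesion proteins whose alternative first exons share constant exons, moved only upward: 14 of 35 tested members were higher and 0 lower, against 14.0% and 14.5% of all genes. The list median was 0.93 on the log2 scale, against 0.01 for all genes, and 1.55 against parental; 11 of the 14 held. Because the members share sequence, reads may be split between them, and their levels are uncertain. Pcdhgb1 read 3.81, 6.62 and 6.29 CPM with ZBTB18, 0.439, 0.465 and 0.661 with empty vector and 0.311, 0.41 and 0.568 in the parental line (log2 fold change 3.44, SE 0.285, adjusted p = 8.59e-09). Pcdhb21 was at 3.03, 3.36 and 2.79 CPM against 1.49, 1.23 and 1.16, and the most abundant called member, Pcdhgb7, was at 8.52 against 4.08 on average. Pcdhgc4 varied within the group, at 13.9, 2.1 and 3.67 CPM against 0.201, 0.082 and 0.185, and with parental values of 2.58, 3.17 and 3.64 it did not pass against that line. Across the fits that leave out 1 ZBTB18 or empty vector library the count of higher members was 10 to 13. Empty vector itself stood 0.95 above parental in the list's median.

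Of 21 tested Notch pathway genes 6 were lower (28.6%) and 3 higher (14.3%), against 14.5% and 14.0% of all genes, and 4 and 2 of them held. The 3 higher calls were 5 when the 6 libraries were fitted alone. Jag2, a Notch ligand, read 0.193, 0.311 and 0.182 CPM with ZBTB18, 4.7, 5.66 and 3.75 with empty vector and 1.19, 0.935 and 0.369 in the parental line (log2 fold change -4.36, SE 0.323, adjusted p = 1.64e-09). Mfng, a glycosyltransferase that tunes ligand choice by Notch, was at 1.41, 1.52 and 2.26 CPM, below both empty vector (11.6, 14.6 and 12) and parental (13.9, 13.8 and 10.7). Of 9 tested netrin and Slit guidance genes 4 were lower (44.4%) and 1 higher (11.1%). Of the 4, 1 lay outside chromosomes 10, 13 and 19. Slit1 on chromosome 19, a repulsive ligand, was at 0.135, 0.125 and 0.109 CPM against 1.4, 1.31 and 1.11 (-3.36), and Ntn4 on chromosome 10, a netrin of basement membranes, at 0.212, 0.145 and 0.292 against 1.93, 1.83 and 2.25 (-3.18). The higher one was Ntng2, a membrane-anchored netrin, at 6.47, 7.22 and 6.47 CPM against 2.53, 2.13 and 2.38, and it held (1.51, adjusted p = 9.99e-06). Semaphorins, plexins and neuropilins had 8 higher (36.4%) and 5 lower (22.7%) of 22, and only 3 of the 8 and 4 of the 5 held. The 8 fell to 4 without ZBTB18 replicate 2 and to 5 without ZBTB18 replicate 3 or empty vector replicate 1. The receptor Plxna3 was at 30.9, 36.2 and 32.4 CPM against 13.8, 12.7 and 14.6 (log2 fold change 1.27, adjusted p = 8.6e-06), above every parental library too. Ephrins and their receptors had 5 lower (41.7%) and 2 higher (16.7%) of 12, the 2 falling to 1 without empty vector replicate 3. Efnb1, a transmembrane ligand, was at 11.3, 9.63 and 10.2 CPM against 24.2, 26.2 and 27.1. Arhgap6, a GTPase-activating protein, lay at 0.0386, 0.104 and 0.0547 CPM against 1.49, 1.59 and 1.06 and 5.35, 5.11 and 5.23 in the parental line (log2 fold change -4.36). Ngef, the exchange factor ephexin that acts below Eph receptors, rose to 8.06, 8.68 and 11.3 CPM from 1.22, 0.929 and 1.19, with parental values of 0.963, 0.889 and 1.42 (3.05, adjusted p = 3.25e-10).

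**Figure D2:**
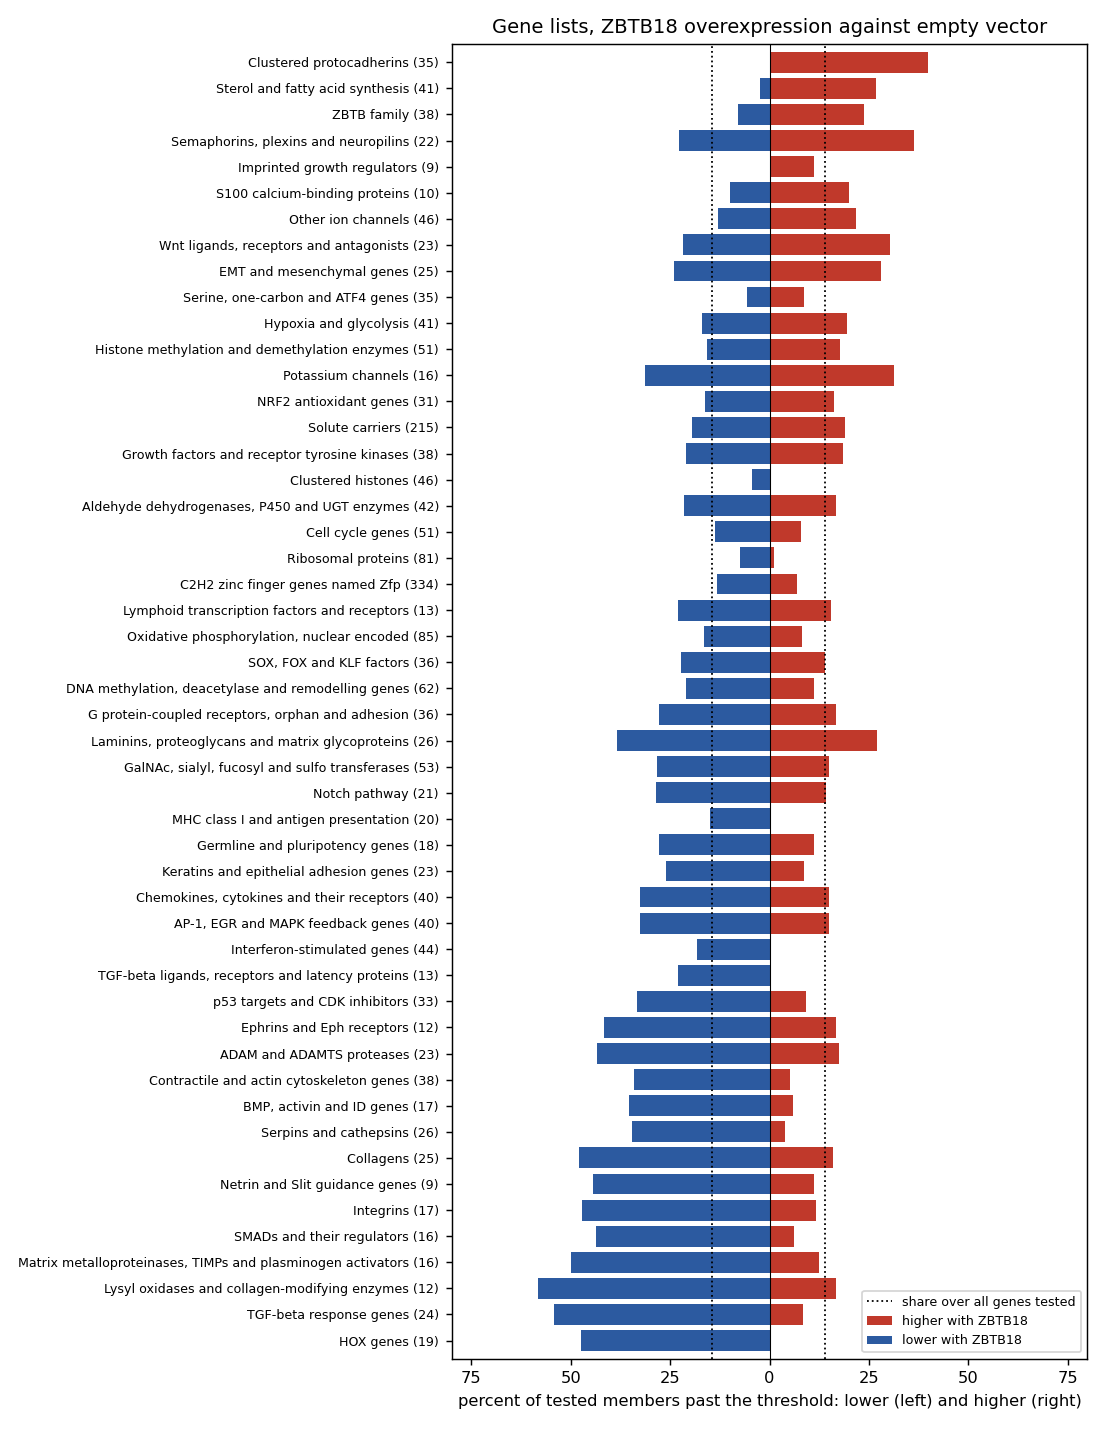
For gene lists with at least 9 tested members, their number in brackets, bars give the percent of members past the threshold, lower with ZBTB18 to the left and higher to the right; dotted lines mark the share over all genes, 14.5% and 14.0%. Protocadherins have bars to the right alone (14 of 35), and HOX genes to the left alone (9 of 19).

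**Figure D3:**
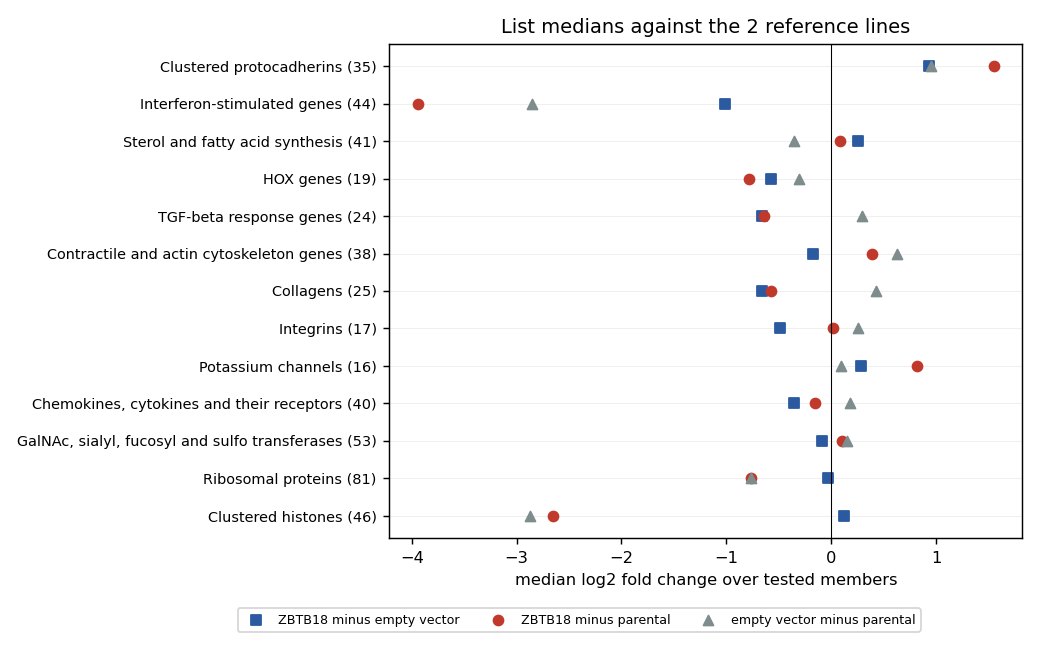
Median log2 fold change over the tested members of 13 lists, for ZBTB18 minus empty vector (squares), ZBTB18 minus parental (circles) and empty vector minus parental (triangles). Interferon-stimulated genes and clustered histones lie far below 0 in both comparisons with the parental line, and protocadherins lie above 0 in all 3.

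Transporters and channels held the largest single fall. Slc16a14 (chromosome 1, 84905898 to 84935134), a member of the monocarboxylate transporter family, read 0.058, 0.0415 and 0.0182 CPM with ZBTB18, 22.3, 14.9 and 22.8 with empty vector and 0.227, 0.114 and 0.398 in the parental line. Its log2 fold change of -8.92 (SE 0.411, adjusted p = 1.06e-12) rests on 6 reads in the ZBTB18 libraries and 3188 with empty vector. Against the parental line, which had 27 reads, it was -2.54, so the gene was high in the empty vector line alone among the 3. Of 215 tested solute carriers 41 were higher and 42 lower, and 33 and 24 of them held. Slc7a3, a carrier of cationic amino acids, fell to 1.51, 1.37 and 1.62 CPM from 12.1, 13.7 and 9.57, and was higher still in the parental line, at 39.4, 27.7 and 24.3 (log2 fold change -2.97, adjusted p = 8.93e-10). Slc52a3, a riboflavin transporter, was at 0.444, 0.353 and 0.492 CPM against 2.53, 2.98 and 3.62 (-2.81). The 42 lower carriers were 24 and 25 on log2(TPM + 1) and log2(TPM + 0.1).

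Among voltage-gated channels, Kcnh3, a potassium channel of the forebrain, read 4.71, 5.5 and 5.89 CPM with ZBTB18, 0.59, 0.765 and 0.661 with empty vector and 3.17, 3.08 and 2.5 in the parental line (log2 fold change 3.02, SE 0.382, adjusted p = 6.36e-06). Cacna1c, the pore subunit of the L-type calcium channel, read 4.4, 5.75 and 4.6 CPM, against 19.5, 15.4 and 19.5 and 15.6, 14.2 and 14.6, so it was below all 6 references (-1.89, SE 0.128, adjusted p = 3.97e-10). Trpc1, a cation channel, was at 2.3, 2.97 and 3.21 CPM against 12, 9.84 and 12.5 (-2.02). Of 46 tested ion channels outside the potassium group 10 were higher (21.7%) and 6 lower (13%). Of 16 potassium channels and their partners 5 were higher and 5 lower (31.2% each). The 5 higher potassium channel genes became 3 without ZBTB18 replicate 2 or 3, or empty vector replicate 1 or 2. Orphan and adhesion receptors coupled to G proteins had 10 lower (27.8%) and 6 higher (16.7%) of 36, against 14.5% and 14.0% of all genes. The 6 fell to 2 without empty vector replicate 1 and to 3 without ZBTB18 replicate 2, ZBTB18 replicate 3 or empty vector replicate 3. Adgra2, a coreceptor for some Wnt ligands, rose to 38.1, 45.9 and 46.5 CPM from 13.8, 11.5 and 16.5, with 13.7, 12.5 and 13.3 in the parental line (log2 fold change 1.64, adjusted p = 1.11e-07).

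Enzymes of O-linked glycosylation differed at several steps. C1galt1 (chromosome 6, 7844842 to 7875687), which adds galactose to protein-bound GalNAc, read 20.6, 22 and 25.5 CPM with ZBTB18, 113, 111 and 106 with empty vector and 133, 125 and 114 in the parental line. All 3 libraries were below every reference, with a log2 fold change of -2.27 (SE 0.103, adjusted p = 7.23e-13). Galnt3 (chromosome 2, 66082766 to 66124994), one of the enzymes that add the first GalNAc, read 1.33, 0.768 and 1.08 CPM, against 11.3, 10.6 and 11.7 with empty vector and 23.3, 18.2 and 16.8 in the parental line (-3.4, SE 0.234, adjusted p = 5.21e-10). Its family member Galnt15, whose promoter is printed above, was higher, at 5.99, 6.62 and 6.11 CPM against 0.564, 0.738 and 0.634 and parental values of 2.89, 2.76 and 2.13 (3.29, SE 0.466, adjusted p = 2.46e-05). Of 53 tested GalNAc, sialyl, fucosyl and sulfo transferases 15 were lower (28.3%), 12 of which held, and 8 higher (15.1%), 6 of which held. Over all genes 14.5% were lower and 14.0% higher. On both TPM scales 9 of the transferases were lower. Chst11, which sulfates chondroitin, fell to 19.9, 19.2 and 23.9 CPM from 84.9, 66.1 and 85.7 (-1.91), and B3gnt7, which extends keratan sulfate chains, rose to 1.66, 2.08 and 1.55 from 0.176, 0.219 and 0.317 (2.94).

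In metabolism, the sterol and fatty acid synthesis list had 11 higher (26.8%) and 1 lower (2.44%) of 41 tested, with a median of 0.26. Of the 11, 3 held. Among the others the parental line could stand near the ZBTB18 line: Sqle, squalene epoxidase, averaged 130 CPM with ZBTB18, 70.4 with empty vector and 121 in the parental line. Acacb, the mitochondrial acetyl-CoA carboxylase, was at 8.54, 11.7 and 13.5 CPM against 3.04, 2.05 and 3.59 and held (log2 fold change 1.95, adjusted p = 0.000527). The 11 became 5 without ZBTB18 replicate 1 and 6 without empty vector replicate 3, 18 with no filter on low counts and 20 when the 6 libraries were fitted alone. Aldehyde dehydrogenases, P450 and UGT enzymes had 9 lower (21.4%) and 7 higher (16.7%) of 42. Aldh5a1, which oxidises succinate semialdehyde, fell to 1.82, 2.64 and 3.63 CPM from 19.3, 18.1 and 19 (-2.8, adjusted p = 2.28e-09). Sod3, the extracellular superoxide dismutase, rose to 7.61, 8.51 and 8.13 CPM from 0.928, 0.765 and 0.898, with parental values of 0.085, 0.182 and 0.568 (3.21, adjusted p = 3.27e-07). Nuclear-encoded oxidative phosphorylation genes had 14 lower (16.5%) and 7 higher (8.24%) of 85, against 14.5% and 14.0% of all genes. The lower ones ran from Ndufs6 (-0.52, 36.3 against 51.9 CPM) to Atp5b (-0.24, 1280 against 1520), and the higher ones were within 0.46 of 0 apart from Cox6a2, a muscle form of a cytochrome oxidase subunit (1.57, 0.301 against 0.105 CPM). All 14 held, but 10 of them lay on chromosomes 10 and 13, leaving 4 elsewhere, and the 14 became 9 without ZBTB18 replicate 3 or empty vector replicate 1 and 22 when the 6 libraries were fitted alone. In that fit the 7 became 13; they were 4 on both TPM scales, 4 without ZBTB18 replicate 1 or 3 or empty vector replicate 1, and 3 without empty vector replicate 2. Ribosomal protein genes were mostly not called, with 6 lower (7.41%) and 1 higher (1.23%) of 81. The 6 were 3, 2 and 2 without ZBTB18 replicate 2, ZBTB18 replicate 3 and empty vector replicate 2, 10 with no filter on low counts and 12 in the 6 libraries alone, and the 1 was lost without ZBTB18 replicate 1 or 2 or empty vector replicate 1 or 3.

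Of 44 tested interferon-stimulated genes, part of the innate response to virus, 8 were lower (18.2%, near the 14.5% of all genes) and 0 higher, and all 8 held. The list median was -1.01 against empty vector and -3.94 against parental, and it was -2.85 for empty vector against parental. Cmpk2, a mitochondrial nucleotide kinase, read 0.251, 0.519 and 0.547 CPM with ZBTB18, 2.47, 2.87 and 3.28 with empty vector and 43.5, 23.8 and 9.57 in the parental line (log2 fold change -2.69, adjusted p = 0.00263). Ifit2, which blocks translation of viral RNA, averaged 10.4, 20.5 and 40.2 CPM in the same order. The count of 8 was 4 without ZBTB18 replicate 3 or empty vector replicate 3, 15 with DESeq2, 33 with no filter on low counts and 27 when the 6 libraries were fitted alone. Chemokines, cytokines and their receptors had 13 lower (32.5%) and 6 higher (15%) of 40, against 14.5% and 14.0% of all genes. Of the lower ones 6 held and 2 had the opposite sign against parental, and of the higher ones 4 held. The 13 were 5, 6, 7 and 8 without ZBTB18 replicates 1, 2 and 3 and empty vector replicate 3, 7 on log2(TPM + 1) and 21 with no filter on low counts. The 6 higher calls were 3 on both TPM scales. Il33, an alarmin cytokine, was higher at 0.792, 2.2 and 2.43 CPM against 0.138, 0.355 and 0.0528 with empty vector and 0.17, 0.137 and 0.114 in the parental line (3.36, SE 0.554, adjusted p = 0.000102). Cx3cl1, a membrane-bound chemokine, was at 3.23, 2.64 and 3.28 CPM against 18.1, 15.1 and 19.9, but the parental line read 1.84, 1.98 and 3.21. Apobec1, a cytidine deaminase, lay at 0.212, 0.125 and 0.164 CPM, below 5.97, 4.05 and 5.73 with empty vector and 7.02, 3.6 and 2.1 in the parental line (-4.95, SE 0.425, adjusted p = 1.48e-08). Parp8 (chromosome 13, 116854820 to 117025537), an ADP-ribosyltransferase, read 0.773, 0.913 and 0.857 CPM against 25.5, 26.1 and 29.4 and 18.9, 14.7 and 15.6 (-4.99, adjusted p = 6.08e-16).

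Genes of cell death and division showed a few large changes among many small ones. Pmaip1 (chromosome 18, 66458533 to 66465565), the pro-apoptotic BH3 protein NOXA, read 0.174, 0.125 and 0.201 CPM with ZBTB18, 3.99, 3.17 and 4.99 with empty vector and 7.36, 6.43 and 6.62 in the parental line (log2 fold change -4.57, SE 0.273, adjusted p = 1.06e-09). Of 33 tested p53 targets and CDK inhibitors 11 were lower (33.3%) and 3 higher (9.09%), of which 7 and 3 held. Outside the shifted chromosomes lay 7 of the 11, and the 3 were 5 with DESeq2 or in the 6 libraries alone. The CDK inhibitor Cdkn1a averaged 65.7 CPM against 113 with empty vector but 45.2 in the parental line, opposite signs. Rb1, the retinoblastoma gene, was among the higher ones at 27.5 CPM, against 12.3 and 8.96 (log2 fold change 1.15). Of 51 cell cycle genes 7 were lower (13.7%) and 4 higher (7.84%), not above the 14.5% and 14.0% of all genes. Ccne1, the cyclin that drives entry into S phase, was at 73.9, 78.0 and 80.7 CPM against 46.8, 44.7 and 46.6 (0.75, adjusted p = 0.000188), and the lower calls, such as Cdk1 (219 against 283 CPM) and Rrm2 (218 against 348), were modest. The 7 became 4, 4, 2, 4 and 3 without ZBTB18 replicates 1, 2 and 3 and empty vector replicates 1 and 3. Among growth factors and receptor tyrosine kinases 8 were lower (21.1%) and 7 higher (18.4%) of 38, the 7 falling to 4 without empty vector replicate 2. Pdgfrb, the receptor for PDGF-BB and one of the fibroblast markers above, fell to 9.76, 11.2 and 11.3 CPM from 41.5, 43.2 and 37.4 (-1.92, adjusted p = 2.65e-05), with 37.3, 32.6 and 30.7 in the parental line. Of the 5 tested fibroblast markers 2 were lower and 1, Col3a1, was higher. Mertk, a receptor for apoptotic cells, was at 0.212, 0.581 and 0.328 CPM against 1.84, 1.61 and 1.66 (-2.2).

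Some differences from empty vector had another sign against the parental line. Kcnip1, a partner of A-type potassium channels, read 0.116, 0.0415 and 0.0912 CPM with ZBTB18, 11.3, 10.1 and 8.46 with empty vector and 0, 0.0228 and 0 in the parental line. Its log2 fold change was -6.85 against empty vector (SE 0.346, adjusted p = 7.65e-10), while against the parental line the ratio was 9.63 from 13 reads and 1 read, with an exact 95% counting interval of 1.45 to 409. Sema5a, a semaphorin, was at 1.64, 1.58 and 1.37 CPM against 8.42, 5.74 and 10.4 with empty vector and 0.17, 0.114 and 0.398 in the parental line, so its log2 fold changes were -2.42 and 2.78. Kcnmb1, a subunit of calcium-activated potassium channels, read 1.2, 2.14 and 2.12 CPM against 7.46, 4.92 and 6.63 with empty vector and 0 in every parental library. With ZBTB18 it was at least 69.4-fold higher than in the parental line, against a floor of 3 counts over the group. Such intervals and floors cover counting error only. Trim59, a RING finger protein, showed the reverse order at 25.9, 26.4 and 31.0 CPM, above 12.9, 13.1 and 14.2 with empty vector and below 53.1, 54.4 and 49.6 in the parental line (1.05 and -0.91). Among genes changed at least 2-fold against empty vector that did not pass against parental, Mbp, myelin basic protein, read 5.04, 6.33 and 6.4 CPM against 1.98, 1.67 and 2.4 and parental values of 6.68, 5.34 and 5.11. Pros1, the anticoagulant protein S, read 0.56, 0.664 and 0.894 CPM against 6.57, 4.48 and 6.84 and parental values of 0.283, 0.433 and 0.767. Lcn2, a siderophore-binding lipocalin, was called at the edge (log2 fold change -2.94, adjusted p = 0.0456), and the call was lost in each of the 9 fits that leave out 1 library (adjusted p up to 0.143).

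The series also holds a ZBTB18-overexpressing line with a doxycycline-inducible TGFBR2, given doxycycline and vehicle, whose 3 libraries give a further reading of the most changed genes. They differ from the ZBTB18 line by the receptor and the drug, and may differ in other ways as a separate line. These differences cannot be told apart here. Of the 10 highest changes that held, the vehicle libraries were all above the empty vector libraries in 5 (Dppa2, Loxl2, Ccn5, Pcdhgb1 and Kcnh3) and not in the other 5 (Pou2af1, Ikzf2, Galnt15, Sod3 and Ngef). Pou2af1 read 0.0554, 0.0559 and 0.0461 CPM there and Ikzf2 0.188, 0.186 and 0.184, both below every empty vector and parental library. Zbtb18 itself read 75.4, 86.2 and 87.0 CPM in the vehicle libraries. Sod3 read 0.987, 0.578 and 1.36 CPM, which spans the empty vector values, and Ngef read 1.09, 1.42 and 1.54. Of the 10 lowest, all 10 were below every empty vector and parental library, between 0 and 1.34 CPM. They were Slc16a14, Nhsl2, Nsd1, Parp8, Apobec1, Mmp2, Fam49a, Clip4, Spata13 and Acpp. Vehicle libraries read 0.0333, 0 and 0.0461 CPM for Nsd1 and 0.0554, 0 and 0.0231 for Mmp2, and Pmaip1 was at 0 in all 3. Kdm5b, at 102, 93.4 and 108 CPM, and Hmga2, at 110 on average, were on opposite sides of their ZBTB18 levels, and Adgra2 was at 0.698, 0.876 and 0.922 CPM against 38.1 to 46.5 in the ZBTB18 line.

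**Figure D4:**
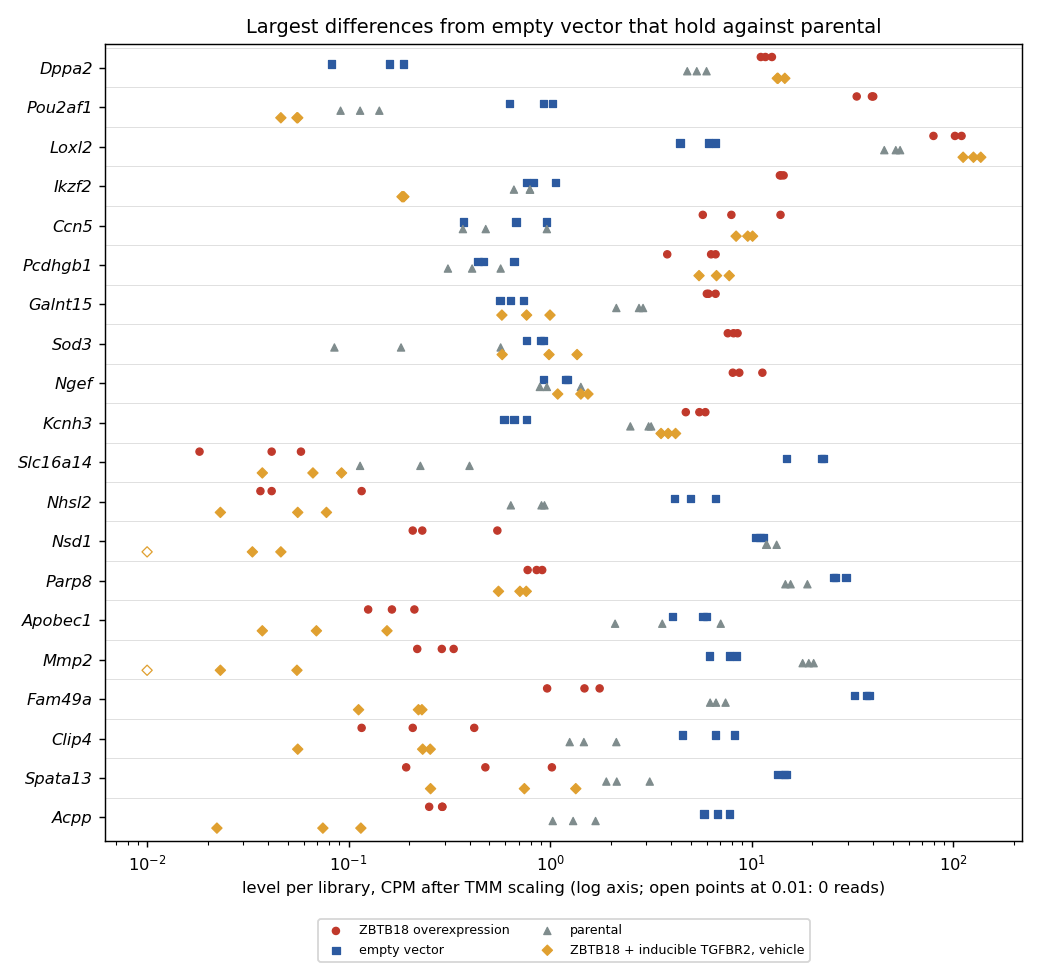
Level of each library in CPM on a log axis for the 10 highest and 10 lowest changes against empty vector that hold against parental, in the ZBTB18 line, empty vector, parental and the ZBTB18 line with inducible TGFBR2 given vehicle. The genes were chosen so that the ZBTB18 points do not overlap those of either reference. The vehicle points, which played no part in the choice, follow the ZBTB18 points in all 10 lower genes and in 5 of the 10 higher ones.

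The CATCTG core was counted in promoters of 300 bases, from 250 before to 50 after each start, on both strands, with ACATCTG, which contains it, as a longer form. It was present in 5635 of all 32851 promoters in the table (17.2%). Of the tested genes 10268 had a promoter there, and 13.6% of them held a match in at least 1 promoter. The share was 12.7% of 1564 higher genes, 15.5% of 1624 lower genes and 13.4% of 7080 genes not past the threshold. Among genes at least 2-fold changed that held it was 18.9% of 233 higher and 23.4% of 359 lower genes. These promoters were also poorer in G and C, with medians of 57.7% and 56.8% against 60.3% over all tested genes; the part of base composition in these shares was not tested. ACATCTG was in 3.06% of tested genes, 6.44% of the 2-fold higher and 7.8% of the 2-fold lower ones that held. A match is a description of letters and not a binding site. Of 64 named genes looked up 40 had a promoter in the table, and 10 of them held a match, among them Galnt15, Apobec1 and Zbtb18 itself.

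Calls were uneven along the genome. On chromosome 10, 268 of 726 tested genes were lower and 39 higher (36.9% and 5.37%), with a median log2 fold change of -0.27. On chromosome 13 the counts were 243 lower and 19 higher of 609 (39.9% and 3.12%, median -0.29), and on chromosome 19 they were 222 higher and 26 lower of 540 (41.1% and 4.81%, median 0.28). The medians against parental were -0.27, -0.18 and 0.11, and those of empty vector against parental 0.0, 0.12 and -0.19. Milder leans were seen on chromosome 1 (23.2% higher) and chromosome 15 (23.8% higher), and on chromosome 12 (25.3% lower) and chromosome 18 (26.8% lower). Outside chromosomes 10, 13 and 19, 1873 genes were higher and 1698 lower of 13557, and 1283 and 1087 of them held. Nsd1, Parp8, Vcan and Aldh5a1 lie on chromosome 13, and Ccn2 and Hmga2 on chromosome 10. Their differences, apart from the 1.19 of Hmga2, which is in the other direction, were all -2.38 or below on the log2 scale, against chromosome medians of -0.27 and -0.29. The part of the chromosome in them was not tested.

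**Figure D5:**
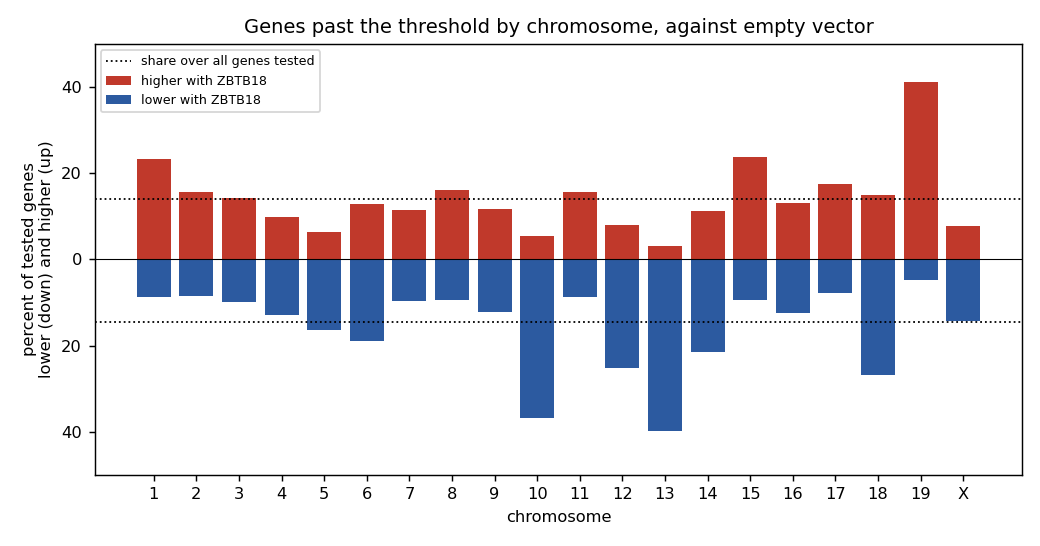
Percent of tested genes past the threshold on each chromosome, higher with ZBTB18 upward and lower downward, with dotted lines at 14.0% and 14.5%, the shares over all genes. Chromosomes 10 and 13 have the longest lower bars (36.9% and 39.9%) and chromosome 19 the longest higher bar (41.1%).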

How the data were processed

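The authors deposited expected counts per gene from RSEM, not normalised, and TPM, which RSEM corrects for transcript length and brings to 1 total in every library; the deposited FPKM file was not used. The submitters' processing notes name RSEM, STAR 2.7.1a, Trim Galore, GATK 4.1.2.0 and genome build mm10. How these steps were ordered, and which annotation release served, is not given in the sources used here. Per the labels' protocols, RNA was enriched for polyA and sequenced with a stranded kit. RSEM shares reads between similar genes, so clustered protocadherins, histones and the Oas and Gbp families are uncertain. Expected counts were rounded (3.65% of values above 0 were not whole), 92 spike-in entries with 0 counts were left out, and 0 value columns were unmapped.

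Groups came from the sample titles. In R 4.3.3, edgeR 4.0.16 was fitted with TMM scaling, its filter on low counts by group and a robust quasi-likelihood F-test, with 1 mean for each of 7 groups over 21 libraries (14 residual degrees of freedom). The two-sided p was adjusted by Benjamini-Hochberg over 15432 genes, with a threshold of 0.05. The SE is the absolute log2 fold change divided by the square root of F. The scripts were tested on simulated data. No gene list was tested as a set. Positions came from GENCODE vM21 (99.29% of identifiers matched) and promoters from RefSeq.

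The genes, lists and comparisons were chosen with earlier results of these data known. Beside Zbtb18 and Tgfbr2, genes with official symbols were named by rule. They were the 10 highest and 10 lowest changes that hold against parental with no overlap and at least 5 CPM, and the 6 and 6 largest at 100 CPM or more. Next came 4 and 4 with opposite signs against the references and 4 and 4 at least 2-fold that did not pass against parental, both at 5 CPM or more. Up to 4 called members of each list at 1 CPM or more, and all TGF-β ligand, receptor and CCN genes, were added. Some genes and lists that the rules name are not reported here. Col6a2, Col18a1, Hoxd10, Serpinf1, Pcdhgb7, Sqle, Atp5b, Cox6a2, Ifit2, Cdkn1a, Rb1, Cdk1 and Gm42418 were chosen after their values were seen. Alternatives were DESeq2 1.42.0, other size factors and filters, the compared libraries alone, limma 3.58.1 on log2(TPM + 1) and log2(TPM + 0.1), a replicate block, Gm42418 left out, each library left out, the chromosomes with a shifted median left out, and a longer motif.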

Additional observations from a re-analysis of the deposited data

How the results depend on the processing

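Of the gene totals, those higher than empty vector and those that were higher and held kept within 1.5 times of their value under every alternative. On log2(TPM + 1) the genes lower than empty vector numbered 1422, those at least 2-fold higher and lower 142 and 263, those higher and lower than parental 6970 and 2185, and the holding lower genes 609. On log2(TPM + 0.1) the lower genes numbered 1474, those higher and lower than parental 7054 and 2298, and the holding lower genes 681. The other alternatives kept each total within 1.5 times. With 1 library left out, the genes higher and lower than empty vector ranged over 1579 to 2375 and 1749 to 2464, and those at least 2-fold over 434 to 526 and 649 to 778. The genes higher and lower than parental ranged over 3904 to 4719 and 4271 to 5025, and the holding genes over 1098 to 1524 and 1058 to 1415. DESeq2 shared 4311 of its 4738 calls with the 4388 reported, all in the same direction.

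The deviations of same-numbered libraries from their group means had correlations of -0.043 to 0.209, and those of other pairs -0.19 to 0.139. The samples were therefore not treated as paired, but so few libraries per group cannot exclude a pairing. With a replicate block the higher and lower genes numbered 2362 and 2435, the 2-fold ones 522 and 746, those against parental 4742 and 4994, and the holding ones 1585 and 1494.

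Of 229 named genes 219 passed the threshold against empty vector. Of these, 184 kept that call in all 9 fits that leave out 1 library, and 35 lost it in at least 1. None of the 219 changed sign against empty vector under any alternative run. In 3 of the 9 fits the library left out was a parental one, which is in neither group compared. Whether single genes still held against parental was not followed through the alternatives. Tm7sf2 and Tnf lost their call in each of the 6 fits without a ZBTB18 or empty vector library. Of 118 list totals (each list in each direction), 43 moved by more than 1.5 times when 1 of the 6 ZBTB18 and empty vector libraries was left out, 36 on a TPM scale, 34 in the 6 libraries fitted alone, 21 with no filter on low counts and 17 without the 3 chromosomes. For example, lower ADAM and ADAMTS genes went from 10 to 5 on both TPM scales, and in the 6 libraries alone lower cell cycle genes went from 7 to 17 and lower growth factor genes from 8 to 13. A count of 0 or few reads in a group limits the size, not the direction, of the largest falls.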
